A study of Mus musculus with 18 samples.

Results

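Lipid droplets are the stores of triglyceride in the liver cell, and the genes described here code for proteins that coat the droplet, fuse or bud it, or cut its triglyceride. They were taken by symbol and are 10 of the 19057 lines of the expression table: the perilipins Plin2, Plin4 and Plin5, the CIDE genes Cidea, Cideb and Cidec, the lipase Pnpla2 with its inhibitor G0s2, the related Pnpla3, and Fitm2. The droplet grows from the endoplasmic reticulum, where Fitm2 acts at budding, and its perilipin coat controls how lipases reach the core. Adipose triglyceride lipase, the product of Pnpla2, makes the first cut in stored triglyceride, and G0S2 protein blocks it. In the fatty liver, PLIN2 is the common coat protein, CIDEC is known from large droplets, and CIDEB is the CIDE protein of normal hepatocytes, where it serves lipid loading of secreted lipoproteins.

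RNA-seq of the liver gave 18 libraries, 3 in each of 6 groups, from ICR mice aged 10 weeks by the labels, and the study's methods describe males. A library is called a liver below. Con mice had a regular diet, and AOS mice were labelled with alginate oligosaccharide at 10 mg/kg alone. HFD mice had the high-fat diet, and HFD+AOS mice had the diet with the same dose of AOS. Con-FMT and A10-FMT mice had the high-fat diet and gut microbiota from donor mice, which were controls for Con-FMT and had been dosed with AOS at 10 mg/kg for A10-FMT. The transplants came from small intestine contents pooled over the donors of a kind, so that 1 pool stood behind each transplant group, and the Con and HFD mice received saline. The methods do not describe the AOS and HFD+AOS groups, and no source used here says whether a library is 1 mouse, so the p values measure the spread between these libraries.

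Values are RPKM, reads scaled by the length of the gene and the mapped reads of the library, so that levels can be compared between genes. Read numbers were not used here, so the depth is unknown, and at the low end 1 read is a visible step. Sums of RPKM went from 692303 to 806937 and genes above 0 from 14512 to 14982 per library. Albumin, the main product of hepatocytes, stood between 24367 and 41363 RPKM. The third libraries of Con and AOS stood apart. The third Con library lay between the first and second for 98.7% of the 149 genes in which those differed at least 2-fold with at least 5 RPKM in 1 of them, and the third AOS library did so for 96.8% of 124 genes, against 54.6 to 74.4% for each library of the other 4 groups. Each library was also fitted as a blend of the others in its group. The third Con library differed from its blend by a median of 0.0649 log2 units, with a weight of 0.54 on the first library. For the third AOS library the median was 0.0817, with a weight of 0.37 on the first. In the other 4 groups these medians went from 0.381 to 0.683. How the third Con and AOS libraries arose, and whether these groups hold 3 independent livers, was not tested. Called differences, and uncalled ones with an unadjusted p under 0.05 that use these groups, are also given without both libraries.

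The stretch before the transcription start is shown for the 4 members that passed a test in some comparison below, because these are the regions from which their RNA is started. The sequences are from RefSeq on GRCm38.p6, read 5′ to 3′ on the strand of the gene, and stop before the first annotated start. They lie at chr7:141454938-141455187 on the plus strand for Pnpla2, chr15:84167566-84167775 on the plus strand for Pnpla3, chr17:56117607-56117798 on the minus strand for Plin5 and chr2:163472630-163472879 on the minus strand for Fitm2. Capitals mark matches to the GC box GGGCGG, the CCAAT box and the nuclear receptor half-site AGGTCA on either strand.
Pnpla2: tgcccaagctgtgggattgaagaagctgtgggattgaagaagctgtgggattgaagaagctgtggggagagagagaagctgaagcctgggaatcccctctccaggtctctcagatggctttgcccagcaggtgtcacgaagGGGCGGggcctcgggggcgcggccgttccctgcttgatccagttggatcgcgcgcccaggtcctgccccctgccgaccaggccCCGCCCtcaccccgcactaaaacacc
Pnpla3: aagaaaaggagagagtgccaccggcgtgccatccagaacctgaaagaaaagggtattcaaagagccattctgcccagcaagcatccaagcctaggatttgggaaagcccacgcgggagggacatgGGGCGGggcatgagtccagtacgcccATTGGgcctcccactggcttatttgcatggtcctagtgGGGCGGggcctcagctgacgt
Plin5: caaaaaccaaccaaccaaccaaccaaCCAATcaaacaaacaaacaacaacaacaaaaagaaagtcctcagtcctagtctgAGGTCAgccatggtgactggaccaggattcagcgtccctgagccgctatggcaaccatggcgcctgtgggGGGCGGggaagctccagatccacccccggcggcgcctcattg
Fitm2: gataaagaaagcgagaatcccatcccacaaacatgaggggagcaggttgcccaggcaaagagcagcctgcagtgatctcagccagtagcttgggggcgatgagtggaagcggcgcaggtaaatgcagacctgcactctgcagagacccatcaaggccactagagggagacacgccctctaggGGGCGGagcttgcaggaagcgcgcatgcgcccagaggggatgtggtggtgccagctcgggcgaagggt

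All 4 stretches hold GGGCGG, which is also in 32.7% of the 32851 windows of 250 bases before annotated starts. Plin5 alone of the 4 holds AGGTCA, the half-site of nuclear receptors, which 14% of all windows hold. Plin2, not printed, holds that half-site too. CCAAT is in the stretches of Plin5 and Pnpla3 and in 33.8% of all windows. The 250-base window of Pnpla3 also holds TGACGTCA, the cAMP response element, which is in 1.55% of windows. It starts 46 bases before the annotated start to which that window belongs. The printed stretch stops at an earlier annotated start, and the element runs over its end, so it is not in capitals. Neither CACGTG, in 6.02% of windows, nor the direct repeat of the half-site with a spacer of 1 base, in 0.0335%, is in a window of a member. Windows were found for 9 of the 10 genes, and these matches are letters only.

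The members span a wide range of levels. Plin2 and Cideb were the most abundant, with means over the 18 livers that place them 445th and 449th of the 10507 genes tested. G0s2 was 1453rd, Pnpla2 2289th, Plin5 3234th and Fitm2 4876th, while Pnpla3 was near the bottom at 10075th. Genes entered the tests if they had at least 1 RPKM in at least 3 livers, and 7 of the 10 members did. Plin4, Cidea and Cidec did not. Pnpla3 reached 1 RPKM in 6 livers, 5 of them on the regular diet, so it passed mainly through the livers in which it was high.

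**Figure D1:**
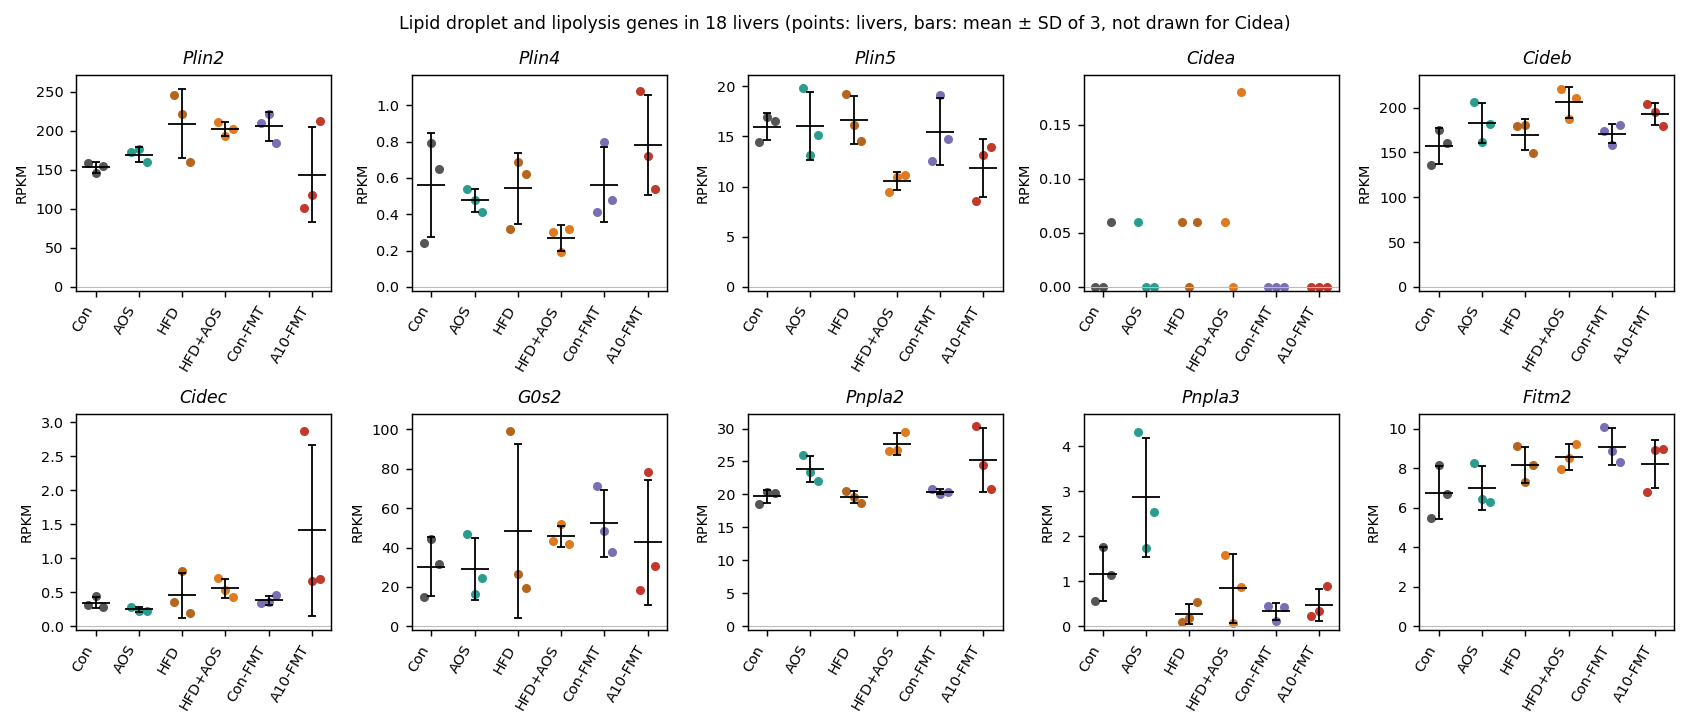
RPKM of the 10 genes in the 18 livers, 1 panel a gene and 1 point a liver, in the order of the replicate numbers; bars give the mean and SD of 3 livers, and none are drawn for Cidea, which is listed at 0 in 12 livers. Pnpla2 sits between 26.6 and 29.5 RPKM in HFD+AOS and between 18.8 and 20.5 in HFD, and Pnpla3 is below 1 in every liver of HFD, Con-FMT and A10-FMT.

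Among the coat genes, Plin5 was lower in the HFD+AOS livers than in the HFD livers, and Plin2 separated no groups by the test. PLIN5 protein holds droplets near mitochondria and binds the lipase and its activator. Plin5 had 19.2, 16.1 and 14.6 RPKM in the HFD livers and 9.47, 11.0 and 11.1 in the HFD+AOS livers. All 3 HFD+AOS livers were below all 3 HFD livers, and 27.2% of all genes tested had no overlap between these groups. The change was -0.61 on the log2(RPKM + 1) scale (SE 0.18, adjusted p = 0.0455 by limma, Benjamini-Hochberg over the 10507 genes), from 16.6 ± 2.36 to 10.5 ± 0.914 RPKM (SD, n = 3). In that comparison 8.75% of all genes tested were called at an adjusted p under 0.05, and 2 of the 7 members tested were, Plin5 lower and Pnpla2 higher. As in any bulk sample, fewer cells with a transcript and less of it per cell cannot be told apart. The call of Plin5 is close to the threshold. It remained in 3 of 12 alternatives, and leaving out any of the 6 livers compared ended it, with an adjusted p up to 0.158. The third Con and AOS libraries enter only the estimate of the spread here, and with both left out the adjusted p was 0.0812.

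In the other groups Plin5 stood at 14.5, 16.9 and 16.6 RPKM in Con, at 19.8, 13.1 and 15.2 in AOS, and at 12.6, 19.1 and 14.7 in Con-FMT. These 3 groups and HFD overlap one another. A10-FMT had 8.55, 13.2 and 13.9 RPKM, all below the HFD livers, and 23.4% of all genes had no overlap between these groups. The difference of -0.47 (SE 0.18) did not pass the test (limma adjusted p = 0.116). It was -0.27 (adjusted p = 0.417) without the first A10-FMT liver. Against their own control on the regular diet, the HFD+AOS livers were lower by -0.55 (SE 0.18, limma adjusted p = 0.0866), again without overlap and without a call, and by -0.58 (adjusted p = 0.222) without the third Con and AOS libraries. Of all genes, 28.7% had no overlap between HFD+AOS and AOS. AOS against Con gave -0.01 (95% interval -0.39 to 0.37). The effect of AOS on HFD minus that on the regular diet was -0.60 (SE 0.25, limma adjusted p = 0.291), so a difference between the diets was not shown, and it was -0.65 (adjusted p = 0.556) without those libraries. With all high-fat groups set against both regular-diet groups, Plin5 was at -0.24 (SE 0.11, limma adjusted p = 0.162). Without those libraries it was at -0.24 (adjusted p = 0.34).

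Plin2, the coat gene that rises with triglyceride load in hepatocytes, had 159, 146 and 156 RPKM in Con and 173, 177 and 159 in AOS. HFD livers had 246, 221 and 161 RPKM, the lowest of them just above the highest Con liver, and 18.5% of all genes had no overlap between HFD and Con. The difference of HFD from Con, 0.42 (SE 0.20), did not pass the test (limma adjusted p = 0.334). In HFD+AOS, Plin2 was at 211, 194 and 202 RPKM, inside the range of HFD. These were above all AOS livers, and 28.7% of all genes had no overlap between HFD+AOS and AOS. Con-FMT had 211, 221 and 185 RPKM, also inside the range of HFD. The A10-FMT livers divided, with 101 and 117 RPKM in the first and second, the lowest of all 18 livers, and 213 in the third. With all 3, A10-FMT against HFD was -0.59 (SE 0.20, limma adjusted p = 0.0860) and against Con-FMT -0.59 (SE 0.20, limma adjusted p = 0.164). Without the third A10-FMT liver the values were -0.91 (adjusted p = 0.000977) and -0.91 (adjusted p = 0.00193), and without the first they were -0.38 (adjusted p = 0.337) and -0.37 (adjusted p = 0.502). Each of these libraries thus moved the value by over 1.5 times, in opposite directions. Over all genes, calls in the 2 comparisons went from 693 and 177 to 1218 and 564 without the third liver, and to 289 and 66 without the first. A second line named Plin2 in the table was at 0 in all but 2 livers and was not used.

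Plin4, the perilipin of fat and muscle, was low, from 0.19 to 1.08 RPKM. The HFD+AOS livers had 0.30, 0.19 and 0.32 RPKM, below the AOS livers with 0.54, 0.48 and 0.41, and 28.7% of all genes tested had no overlap between these groups. HFD, with 0.32, 0.69 and 0.62 RPKM, touched the HFD+AOS range at its lowest liver. In A10-FMT the first liver, at 1.08 RPKM, was the highest of the 18. With no filter on low values, no comparison of Plin4 passed the test, and the smallest limma adjusted p was 0.312, for HFD+AOS against HFD at -0.27 (SE 0.14).

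Of the CIDE genes, Cideb was abundant and Cidea and Cidec were low. Cidea, known from brown fat and from severe steatosis, was listed at 0 in 12 livers and did not exceed 0.18 RPKM in any. Cideb had 136, 176 and 160 RPKM in Con, 206, 162 and 182 in AOS, and 179, 181 and 150 in HFD. HFD+AOS had 221, 187 and 211 RPKM, all above the HFD livers, a difference of 0.28 (SE 0.11) that did not pass the test (limma adjusted p = 0.136). Of all genes, 27.2% had no overlap between these groups. Con-FMT had 174, 159 and 180 RPKM and A10-FMT 204, 196 and 180, and both overlapped HFD. The Cideb means were higher in the AOS group of each diet and in A10-FMT than in the matching controls, by 0.22 for AOS against Con, 0.28 for HFD+AOS against HFD and 0.17 for A10-FMT against Con-FMT, and none of the 3 was called. The coefficient of variation of Cideb within groups was 6.32 to 12.5%. Its gene shares 1451 bases with Nop9 on the opposite strand, and the use of strand in counting is not given in the sources used here. Nop9 was at 4.98 to 6.4 RPKM.

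Cidec, which makes large droplets in adipocytes and in steatotic liver, was between 0.19 and 0.82 RPKM in 17 livers and at 2.87 in the first A10-FMT liver. The other A10-FMT livers had 0.66 and 0.70 RPKM. Con had 0.31, 0.44 and 0.29 RPKM, AOS 0.29, 0.23 and 0.23, HFD 0.35, 0.82 and 0.19, HFD+AOS 0.71, 0.54 and 0.43, and Con-FMT 0.34, 0.35 and 0.46. All A10-FMT livers were thus above all Con-FMT livers, where 18.3% of all genes tested had no overlap. HFD+AOS livers were above AOS livers, where 28.7% had none. With no filter on low values none of the comparisons of Cidec passed the test. The largest difference, A10-FMT against Con-FMT, was 0.68 (SE 0.24, limma adjusted p = 0.252).

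The first A10-FMT liver, which was highest for Cidec, Plin4 and Pnpla2, also had markers of adipocytes. The summed level of 7 such markers (Adipoq, Plin1, Lep, Cfd, Retn, Lipe and Fabp4) was 64.9 RPKM there and between 12 and 21.6 in the other 17 livers. Lipe and Fabp4 are read in every liver here. Without them the sum was 29.4 RPKM in that liver against 0 to 2.15 elsewhere. Adipoq was at 4.42 RPKM and Plin1 at 0.98 in it, and the second A10-FMT liver had 0.39 and 0.11. The part of these markers in the levels of Cidec, Plin4 and Pnpla2 in A10-FMT was not tested. In the HFD+AOS livers the summed level of all 7 markers was 15.3 to 21.6 RPKM, above the 12 to 14.8 of the HFD livers. Lipe and Fabp4 made up nearly all of it, with 14.8 RPKM of Fabp4 in the first HFD+AOS liver and Lipe called higher, as given below. The sum of the other 5 was 0 to 0.16 RPKM in both groups, with Adipoq at 0.06, 0 and 0 RPKM in HFD+AOS and at 0 in HFD, and Plin1 at 0 in all 6 livers.

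**Figure D2:**
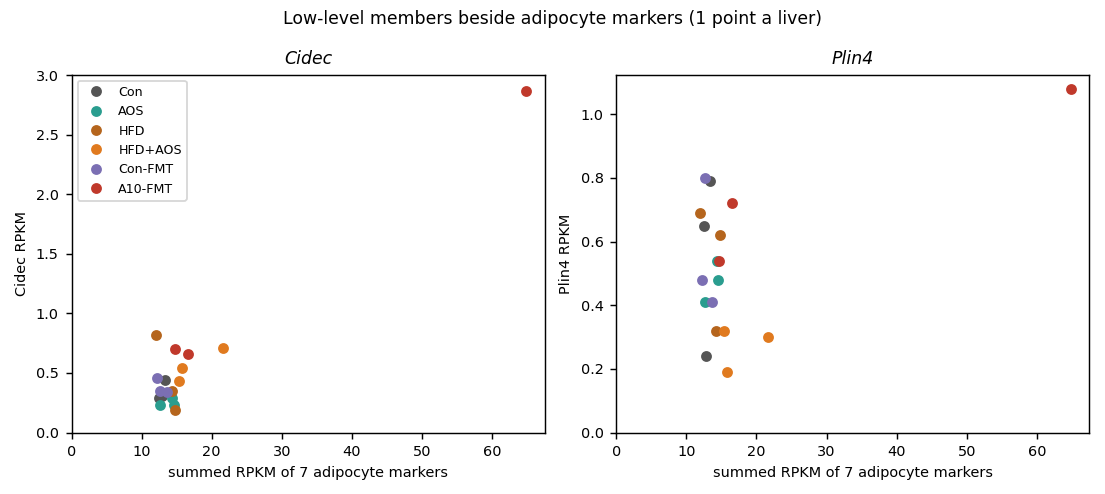
RPKM of Cidec (left) and Plin4 (right) against the summed RPKM of 7 adipocyte markers, 1 point a liver, coloured by group. The first A10-FMT liver stands alone at a summed 64.9 RPKM with 2.87 RPKM of Cidec and 1.08 of Plin4, and the other 17 lie between 12 and 21.6.

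The lipase gene Pnpla2 was higher in the HFD+AOS livers than in the HFD livers. The values were 20.5, 19.6 and 18.8 RPKM in HFD and 26.6, 26.8 and 29.5 in HFD+AOS. The groups do not overlap, as was so for 27.2% of all genes tested. The means were 19.6 ± 0.880 and 27.6 ± 1.64 RPKM (SD, n = 3), a ratio of 1.41, and the change was 0.47 (SE 0.10, limma adjusted p = 0.0128). The call held in 11 of 12 alternatives and was lost without the third HFD liver (0.44, adjusted p = 0.0574). It also held without the third Con and AOS libraries (adjusted p = 0.0278).

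Pnpla2 was at 18.6, 20.3 and 20.3 RPKM in Con and at 20.8, 20.0 and 20.4 in Con-FMT, which with HFD makes 3 groups between 18.6 and 20.8. AOS livers had 26.0, 23.5 and 22.1 RPKM, each above every Con liver, and 24.7% of all genes had no overlap between AOS and Con. That difference from Con, 0.26 (SE 0.10), did not pass the test (limma adjusted p = 0.244), and without the third libraries of both groups it was 0.33 (adjusted p = 0.532). A10-FMT had 30.4, 24.5 and 20.9 RPKM. Each was above every HFD liver, and 23.4% of all genes had no overlap between those groups. Each was also above every Con-FMT liver, the third by little, where 18.3% of all genes had no overlap. Against HFD the A10-FMT difference was 0.33 (SE 0.10, limma adjusted p = 0.0624), and no member was called in that comparison, where 6.6% of all genes were. Setting the livers' medians equal gave 0.37 (adjusted p = 0.0305), and the value was 0.46 (adjusted p = 0.00749) without the third A10-FMT liver and 0.19 (adjusted p = 0.261) without the first, the liver with the adipocyte markers. The difference of A10-FMT from Con-FMT was 0.28 (SE 0.10, limma adjusted p = 0.194), with no member called where 1.68% of genes were, and it was 0.40 (adjusted p = 0.0241) without the third liver and 0.14 (adjusted p = 0.580) without the first. The diet itself left Pnpla2 at a difference of -0.01 (95% interval -0.23 to 0.21) between HFD and Con. AOS on HFD and AOS on the regular diet differed by 0.21 (SE 0.15, limma adjusted p = 0.518).

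G0s2, the inhibitor of that lipase, varied widely within groups. Its coefficient of variation within a group had a median of 51.2% and reached 91.2%, and among the 7 tested members only Pnpla3, at a far lower level, had a higher median, 64.8%. Con livers had 15, 44.5 and 31.5 RPKM, AOS 46.9, 16.5 and 24.6, and HFD 99.0, 26.5 and 19.4. HFD+AOS livers had 43.4, 51.9 and 42.1 RPKM, Con-FMT 71.1, 48.5 and 37.5, and A10-FMT 18.7, 78.5 and 30.6. Every pair of groups compared overlapped. No comparison of G0s2 passed the test, and the interval of HFD against Con, -0.81 to 1.64, is wide enough to hold a large change in either direction. The G0s2 gene lies within Lamb3 on the opposite strand, and Lamb3 was at 0.45 to 1.01 RPKM.

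Pnpla3, a droplet protein of the same family whose RNA is known to follow carbohydrate feeding through SREBP-1c and ChREBP, was lower in livers on the high-fat diet. On the regular diet Con livers had 0.56, 1.77 and 1.15 RPKM and AOS livers 4.33, 1.74 and 2.55. On the high-fat diet the values were 0.10, 0.19 and 0.53 in HFD, 1.59, 0.07 and 0.87 in HFD+AOS, 0.46, 0.12 and 0.43 in Con-FMT, and 0.23, 0.33 and 0.89 in A10-FMT. Thus 9 of the 12 livers on the high-fat diet were below all 6 on the regular diet, and the 3 others, 2 in HFD+AOS and 1 in A10-FMT, were inside the regular range. The medians were 1.76 RPKM in the regular-diet livers and 0.38 in the others.

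With all 4 high-fat groups set against both regular-diet groups, the change of Pnpla3 was -0.97 (SE 0.19, limma adjusted p = 0.00334). Here 12.9% of all genes tested were called, and 2 of the 7 members, Pnpla3 lower and Fitm2 higher. An exact permutation test of the 12 and 6 livers, two-sided over 18564 arrangements and run for each of the 10 members, gave p = 0.000862 for Pnpla3, and p = 0.0044 without the third Con and AOS libraries. All 23 alternatives left it called, with adjusted p values from 0.00159 to 0.0300. Pnpla3 reached 1 RPKM in 5 of the 6 regular-diet livers and in 1 of the 12 high-fat livers. It thus passed the low-value filter mainly through the side on which it was high. With no low-value filter the limma adjusted p was 0.00806. On a pseudocount of 0.1, which weighs low values more, the change was -1.96. This contrast has an AOS-dosed group on each side and both transplant groups on the high-fat side only, so it is not a test of the diet alone.

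Within pairs of groups, Pnpla3 was lower in HFD+AOS than in AOS by -1.11 (SE 0.30, limma adjusted p = 0.0451), the only member called where 5.44% of all genes were. All 3 HFD+AOS livers were below the AOS livers, and 28.7% of all genes had no overlap between these groups. That call stayed in 4 of 12 alternatives, with adjusted p values of 0.0823 with no low-value filter and 0.158 without the third Con and AOS libraries. HFD against Con, the same question without AOS, gave -0.74 (SE 0.30, limma adjusted p = 0.257), from 1.16 ± 0.605 to 0.273 ± 0.227 RPKM (SD, n = 3), and the groups did not overlap, as was so for 18.5% of all genes. Without the third Con and AOS libraries it was -0.72 (adjusted p = 0.521). No member was called in HFD against Con, where 0.381% of genes were. AOS against Con was 0.83 (SE 0.30, limma adjusted p = 0.212), where 0.133% of genes and no member were called, and 0.88 (adjusted p = 0.568) without those libraries. Pnpla3 shares 5323 bases with the transcript gene Gm49513 on the same strand, and its reads may be split with it.

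Fitm2, which binds triglyceride in the endoplasmic reticulum and is needed for droplets to bud, was slightly higher on the high-fat diet. Regular-diet livers had 5.48, 8.16 and 6.70 RPKM in Con and 8.28, 6.43 and 6.28 in AOS. High-fat livers had 9.12, 7.31 and 8.15 RPKM in HFD, 7.97, 8.54 and 9.25 in HFD+AOS, 10.1, 8.89 and 8.31 in Con-FMT, and 6.82, 8.92 and 8.97 in A10-FMT. Of the 12 high-fat livers 8 were above every regular-diet liver, and no member kept the 12 and 6 livers fully apart, as 0.628% of all genes tested did. The change was 0.28 (SE 0.08, limma adjusted p = 0.0363) and the exact permutation test gave p = 0.00307. This call stayed in 10 of 23 alternatives. When the third library of Con and that of AOS were left out, the change was 0.25 (adjusted p = 0.185, and exact permutation p = 0.0203), and with the replicate number as a block the adjusted p was 0.0528. For single pairs of groups HFD against Con was at 0.25 (SE 0.13) and HFD+AOS against AOS at 0.27 (SE 0.13), and neither passed the test. Fitm2 shares 673 bases with the antisense gene 2310001K24Rik. The other 8 members had exact permutation p values from 0.0727 for Cidec to 0.916 for Plin4 between the diets. The exact permutation p of Cidec was 0.0395 with a pseudocount of 0.1. Without the first A10-FMT liver, which holds the adipocyte markers and a low Plin2, Cidec had exact permutation p = 0.0271 at 0.20 and Plin2 p = 0.0423 at 0.27. With all livers the exact permutation p of Plin2 was 0.250. The exact p values are not adjusted for the number of members or of settings.

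**Figure D3:**
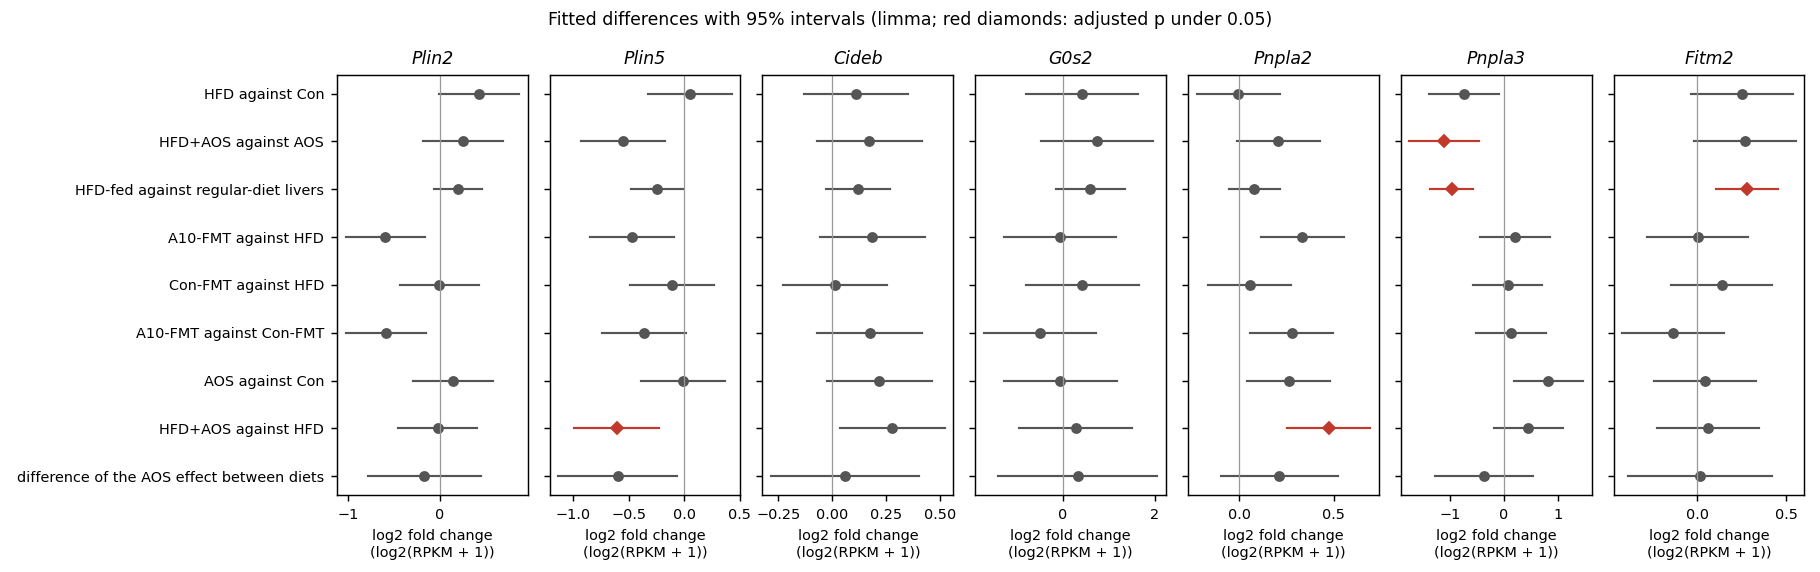
Fitted differences of the 7 tested genes on the log2(RPKM + 1) scale (x axis) in 9 comparisons (rows), with 95% intervals from limma; red diamonds mark adjusted p values under 0.05. There are 5 of them, Pnpla2 at 0.47 and Plin5 at -0.61 in HFD+AOS against HFD, Pnpla3 at -1.11 in HFD+AOS against AOS and at -0.97 between the diets, and Fitm2 at 0.28 between the diets.

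Con-FMT, the transplant of control microbiota, gave no call against HFD among the 7 tested members. Their differences went from -0.11 to 0.43, none had an unadjusted p under 0.05, as 6.63% of all genes did, and every member's Con-FMT and HFD livers overlapped, while 10.1% of all genes had no overlap. Only 0.00952% of genes were called there. For the effect of AOS between the diets 0.504% of genes were called and no member, with 1 unadjusted p under 0.05, that of Plin5, where 14.7% of all genes had one. At an unadjusted p under 0.05 the count of the 7 tested members was 1 for HFD against Con (15.4% of all genes), 3 for A10-FMT against HFD (24.5%), 2 for A10-FMT against Con-FMT (16.4%) and 2 for AOS against Con (15.5%). It was 2 for HFD+AOS against AOS (20.5%), 3 between the diets (27.6%) and 3 for HFD+AOS against HFD (26.2%). Groups of 3 livers were without overlap for 1 tested member in each direction in HFD against Con (18.5% of all genes) and in A10-FMT against HFD (23.4%), for 2 in each direction in HFD+AOS against AOS (28.7%), for 2 higher and 1 lower in HFD+AOS against HFD (27.2%), for 2 higher in AOS against Con (24.7%) and for 1 higher in A10-FMT against Con-FMT (18.3%). Comparisons with HFD share its 3 livers, so their values are not independent. The median change of the tested members in HFD+AOS against HFD was 0.28, with -0.01 for all genes, and for A10-FMT and HFD the medians were 0.00 and -0.03.

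**Figure D4:**
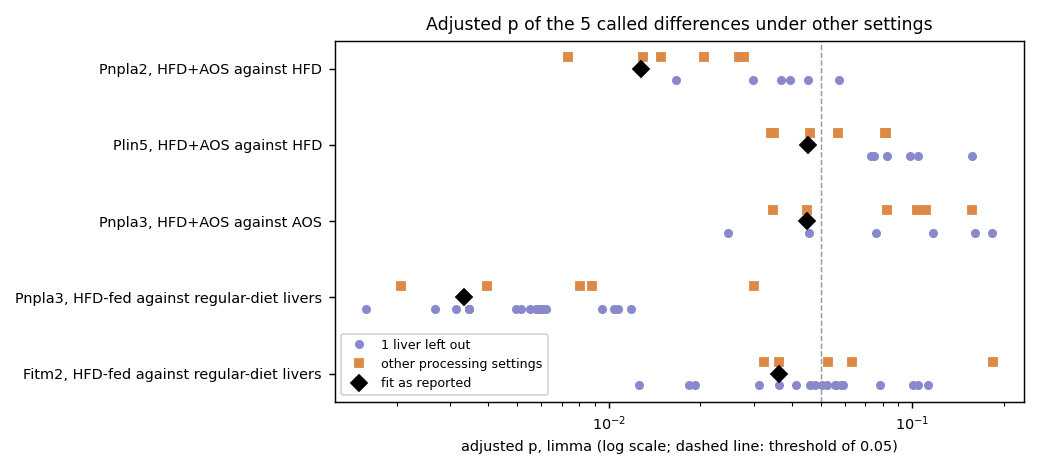
Adjusted p of the 5 called differences (rows) on a log axis, as reported (black diamonds), with 1 liver left out (circles) and under other processing settings (squares); the dashed line is 0.05. All values of Pnpla3 between the diets lie at or under 0.0300, and the alternatives of Plin5 in HFD+AOS against HFD reach 0.158.

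The list of other droplet and lipolysis genes held 28, and 26 were tested. Between the diets 2 were called higher and 2 lower, 15.4% of the list, with 12.9% of all genes called. In HFD+AOS against HFD 2 were called, 7.69% of the list, with 8.75% of all genes. Both shares are near those of all genes. Hsd17b11, a droplet dehydrogenase, rose by 0.56 (limma adjusted p = 0.000512), Mettl7a1 rose by 0.19 (limma adjusted p = 0.0376), Tmem159, a partner of seipin, fell by 0.47 (limma adjusted p = 0.00194), and Abhd5, the activator of the Pnpla2 lipase, fell by 0.29 (limma adjusted p = 0.00497). The enzyme after that lipase, hormone-sensitive lipase (Lipe), rose by 0.57 in HFD+AOS against HFD (limma adjusted p = 0.0287), from 4.58, 3.81 and 3.65 RPKM to 6.70, 6.22 and 6.29, without overlap, as was so for 27.2% of all genes. This call stayed in 5 of 12 alternatives, with an adjusted p of 0.0517 without the third Con and AOS libraries. Faf2, which brings a degradation factor to the droplet and binds the lipase, fell by 0.28 there (limma adjusted p = 0.0477) and by 0.35 in A10-FMT against HFD (limma adjusted p = 0.0223). Tmem159 fell by 0.67 in HFD against Con (limma adjusted p = 0.0460), and the other 5 comparisons called none of the 26. Without the third Con and AOS libraries Tmem159 in HFD against Con (adjusted p = 0.245), Mettl7a1 (0.108) and Faf2 in HFD+AOS against HFD (0.0777) were not called, and Hsd17b11, Abhd5, Tmem159 between the diets and Faf2 in A10-FMT against HFD still were. No gene of the whole table was called by limma in HFD against Con without them, or without the first or the third Con library alone, while 1076 genes had an unadjusted p under 0.05 without both. The list's median change between the diets was 0.02, with 0.01 for all genes.

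Genes under the regulators that are known to act on the members were called in both directions. Of 18 targets of PPAR alpha, the fatty acid receptor that also acts on Plin2 and Plin5, 9 were called higher between the diets and 1 lower, among them Cpt1a at 0.70 (limma adjusted p = 4.42e-05). That is 55.6% of the list, with 12.9% of all genes called. The lists were chosen with earlier results of these data known, so their shares are descriptions. The part of these regulators in the levels of the members was not tested. Of 15 targets of SREBP-1c and ChREBP, the fed-state regulators of Pnpla3, 6 were called lower and 1 higher, 46.7% of the list, with Scd1 at -3.26 (limma adjusted p = 0.00188) and Acacb at -1.63 (limma adjusted p = 0.00134). The gene called higher was Srebf1 at 0.46 (limma adjusted p = 0.0231, chosen after its value was seen), which codes for SREBP-1 itself. Without the third Con and AOS libraries 6 of the 18 were called higher and 1 lower, and of the 15, 4 were called lower and 0 higher, with Srebf1 at 0.45 (limma adjusted p = 0.112). In that fit 4.47% of all genes were called. The medians of these lists were 0.37 and -0.41, with 0.01 for all genes. In HFD+AOS against HFD 2 of the 18 were called higher and 1 lower, 16.7% of the list, with 8.75% of all genes called. Of the 15, 2 were called higher, 13.3%. These were Thrsp at 2.39 (limma adjusted p = 0.00826) and Srebf1 at 0.92 (limma adjusted p = 0.0136), while Pnpla3 was at 0.46 (limma adjusted p = 0.361). In A10-FMT against HFD, where 6.6% of all genes were called, the same 2 of the 15 were called higher and 0 lower. They were Thrsp at 2.64 (limma adjusted p = 0.00487) and Srebf1 at 0.94 (limma adjusted p = 0.0119), with Pnpla3 at 0.21 (limma adjusted p = 0.717). Of the 18, 0 were called higher and 4 lower there, 22.2% of the list. Those 4 calls stayed in 3 to 11 of 12 alternatives. Without the third Con and AOS libraries 2 of the 18 were called lower there, and 2 of the 15 higher. In HFD+AOS against HFD without those libraries, 1 of the 18 was called higher and 1 lower, and 2 of the 15 higher.

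Over the 18 livers some members ran together. These correlations are of log2(RPKM + 1), and the livers share their groups, so they are descriptions. Cideb and Pnpla2 had Pearson's r = 0.80 and Spearman's rho = 0.83, r = 0.78 without the 2 livers farthest from the median of Cideb, and r = 0.55 with the group means removed. G0s2 and Fitm2 had r = 0.80 and rho = 0.77, r = 0.76 without 2 livers, and 0.77 with the group means removed. Plin5 and Pnpla2 ran in opposite directions, with r = -0.66 and rho = -0.58, -0.45 without 2 livers, and -0.24 with the group means removed. Outside the members, the gene most like Pnpla2 was Cmtm8 (r = 0.91), followed by Parp10 (0.91), and that most like Cideb was Fah (0.94), the last enzyme of tyrosine breakdown, followed by Selenoo (0.93). For Plin5 it was Irgq (0.92), then Slc45a3 (0.88), for Pnpla3 Gstt3 (0.91), then Vat1 (0.89), and for Plin2 Kank1 (0.86), then Tmed5 (0.85). Fitm2 was most like Acadm (0.90), the medium-chain acyl-CoA dehydrogenase of fatty acid oxidation, and Mut (0.89), and G0s2 most like Ehmt1 (0.81) and Gm39469 (0.78). With the group means removed, the r of these 14 pairs went from 0.59 for Pnpla2 and Parp10 to 0.93 for Cideb and Fah.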

How the data were processed

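Liver RNA was sequenced in 18 libraries, 3 per group, grouped by the labels. The authors mapped reads and deposited RPKM per gene symbol, rounded to 2 decimals, with no header naming the unit, which was taken from the study's methods. Those name SOAPaligner, while the submitters' processing notes name Bowtie 0.12.2 and mm10 (GRCm38). Strand, annotation and depth are not given in the sources used here, so count tests such as the DEGseq test of the study were not run. Genes with at least 1 RPKM in at least 3 livers were kept (10507 of 17109 with any value). Values were log2(RPKM + 1), which understates changes of low genes, fitted with 1 mean per group over all 18 livers by lmFit and eBayes of limma 3.58.1 with a trend (R 4.3.3). The Benjamini-Hochberg adjustment ran over all genes within each of 9 comparisons. The fit was also run on simulated normal values with changes added in HFD. Those changes were larger than most differences called here, and no mixed libraries were simulated, so that run does not bear on these calls. Tables were made with pandas 2.3.3 and numpy 2.4.6 and figures with matplotlib 3.10.9, under Python 3.11.15. The members and lists were chosen with earlier results of these data known. Named were all 10 members, at most 3 called genes per list and comparison by smallest p, with Mettl7a1 and, between the diets, Srebf1 added after their values were seen, and the 2 genes most correlated with each tested member. Where a symbol had several lines, the line with the highest mean was used. Alternatives were a pseudocount of 0.1, no low-value filter, equal medians, only the groups compared, the replicate number as a block, and livers left out. Same-numbered livers correlated from -0.177 to 0.225 after removal of group means, and in 0 comparisons was every value over 0.1. Differently numbered livers were not compared, so these values neither show nor exclude a pairing by number. Gene positions and overlaps were taken from GENCODE M21 on GRCm38, and 10 of 10 members were found by symbol.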

Additional observations from a re-analysis of the deposited data

How the results depend on the processing

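With 3 livers a group no exact test of single groups can go below p = 0.1, and low values such as those of Pnpla3 rest on an unknown number of reads. No alternative turned the direction of a member's difference that had an unadjusted p under 0.05. The number of members called in HFD+AOS against AOS was 1, and 0 with a pseudocount of 0.1, with no low-value filter, without the third Con and AOS livers, and with only the groups compared. Between the diets it was 2, and 1 with no low-value filter and without the third Con and AOS livers. In HFD+AOS against HFD it was 2, and 1 with no low-value filter and without those livers. In A10-FMT against HFD it was 0, and 1 with equal medians, where calls over all genes went from 693 to 1070. With the replicate number as a block, it was 1 between the diets and 1 in HFD+AOS against HFD, and other counts of members called were as without the block. Whether the numbers pair livers is not known. The causes were not tested. Leaving out 1 liver at a time gave 0 to 1 members called in HFD+AOS against AOS, 1 to 2 between the diets, 0 to 2 in A10-FMT against HFD and in A10-FMT against Con-FMT, 0 to 1 in HFD+AOS against HFD, and 0 in HFD against Con, Con-FMT against HFD, AOS against Con and the effect of AOS between the diets. Of the exact tests of single members between the diets 2 had a p under 0.05, 3 with a pseudocount of 0.1, and 2 to 4 with 1 liver left out. The 2 members called without the third A10-FMT liver were Plin2 and Pnpla2, and calls over all genes then went from 693 to 1218 against HFD and from 177 to 564 against Con-FMT.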
